A study of Danio rerio with 8 samples.

Results

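Bmp, Fgf and Hedgehog signals and the Bmp antagonist Chordin pattern the early zebrafish embryo, and 5 of their genes were followed here through every library of an RNA-seq series. The genes were chosen by name as patterning signals, with earlier results of these data known. They were bmp2b (ENSDARG00000041430), bmp4 (ENSDARG00000019995), chrd (ENSDARG00000006110), fgf8a (ENSDARG00000003399) and shha (ENSDARG00000068567), which are 5 of the 34289 gene IDs in the tables. The series profiled primordial germ cells (PGCs), the cells that later form eggs and sperm, beside somatic cells separated from them by fluorescence-activated cell sorting. Both cell types came from embryos of the kop-EGFP-F-nos3'UTR transgenic line, whose construct also carries cry-DsRed per the study's methods. The line expresses a fluorescent protein, EGFP, in its PGCs. All groups carried the transgene and none was treated. The 4 groups of 2 libraries were PGCs at 24 hours post fertilisation (hpf, pharyngula), somatic cells at 24 hpf, PGCs at 7 hpf (gastrula) and somatic cells at 7 hpf. The soma libraries were not divided by somatic cell type, so a level in them is an average over all somatic tissues of the embryo. In such bulk samples, fewer cells that express a gene and less RNA per cell cannot be told apart.

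Bmp ligands are secreted proteins that bind paired receptor kinases on the cell surface and act through Smad transcription factors. In the fish gastrula they form a gradient that is high ventrally, and Chordin, secreted dorsally from the organiser, binds them and keeps them from their receptors. Fgf ligands signal through receptor tyrosine kinases and the MAP kinase cascade, and switch on their own inhibitors of the Sprouty and Dusp families. Sonic hedgehog is made in the embryonic shield, and later in the notochord and floor plate, binds Patched receptors and acts through Gli transcription factors. PGCs migrate through the embryo during this period.

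The libraries held 6997561 to 21073240 expected counts. Of the gene IDs, 19885 passed the count filter, all 5 genes among them. The 5 germ cell markers summed to 454 and 335 counts per 1000000 counts of scaled library size (CPM) in PGCs at 24 hpf, against 2.58 and 5.35 CPM in soma at 24 hpf, and to 2951 and 3155 CPM in PGCs at 7 hpf, against 72.7 and 26.0 CPM in soma at 7 hpf. All 5 were higher in PGCs at 7 hpf, where 3.61% of all genes tested were, and 4 of 5 at 24 hpf, where 0.0302% were. These markers were, however, taken from ontology lists that the study had derived from genes high in PGC libraries. The PGC libraries also held RNA of somatic markers. Of 12 such markers 0 were higher and 2 lower in PGCs at 7 hpf (median log2 fold change -0.52), where 3.61% of all genes tested were higher and 1.83% lower. At 24 hpf 0 passed (median -0.53), where only 0.0302% of all genes tested did. The 12 somatic markers summed to 2696 and 6623 CPM in PGCs at 24 hpf and 7120 and 7507 CPM in soma at 24 hpf, and to 3413 and 1810 CPM in PGCs at 7 hpf and 985 and 1130 CPM in soma at 7 hpf. krt4, a keratin of the outer epithelial layer, made up most of that sum in every library except the first of soma at 7 hpf, and between 0 and 3 of the 12 markers were at 0 counts in any library. The muscle gene MYOG, listed among them, had 36.2 and 29.0 CPM in PGCs at 24 hpf and 65.7 and 27.0 CPM in soma at 24 hpf, and was at 0 in all 4 libraries of 7 hpf. The part that this somatic RNA played in the levels below was not tested.

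The level of every gene depended on the stage, while no difference between PGCs and soma passed the threshold. bmp2b, bmp4, chrd and fgf8a fell between 7 and 24 hpf and shha rose, in both cell types. CPM values here are counts divided by TMM-scaled library size, which compares libraries for 1 gene. TPM values, transcripts per 1000000, also divide by gene length and are used where levels of different genes are set against each other. They are listed for each gene too, but between libraries they depend on what else makes up each library's sum.

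**Figure D1:**
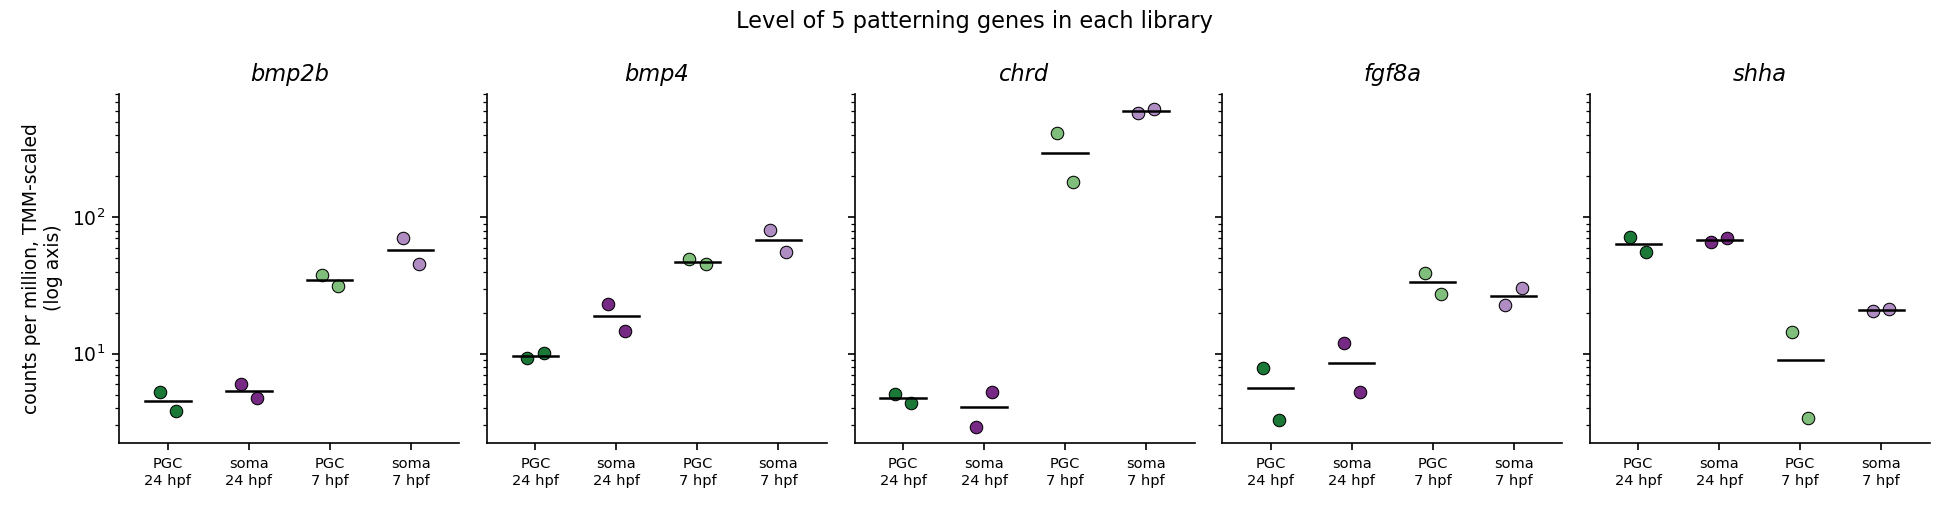
Each point is 1 library (2 per group) and each bar the mean of the 2, in TMM-scaled CPM on a log axis, for PGCs and soma at 24 hpf and PGCs and soma at 7 hpf. chrd spans the widest range, with 4.36 to 5.07 CPM in PGCs at 24 hpf and 181 to 413 CPM in PGCs at 7 hpf, and shha is the gene whose 24 hpf points lie above its 7 hpf points.

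bmp2b encodes a Bmp ligand whose loss leaves fish embryos dorsalised. At 24 hpf its expected counts were 99 and 63 in PGCs (5.23 and 3.82 CPM) and 91 and 69 in soma (6.02 and 4.73 CPM). At 7 hpf they were 524 and 303 in PGCs (38.0 and 31.2 CPM) and 941 and 485 in soma (70.4 and 45.2 CPM). The 24 hpf values were all below the 7 hpf values. In PGCs bmp2b fell by 2.93 ± 0.39 on the log2 scale (SE, edgeR quasi-likelihood test, adjusted p = 0.000889), and in soma it fell by 3.42 ± 0.39 (adjusted p = 0.000438). Its level per length at 24 hpf was 1.10 ± 0.318 TPM in PGCs and 1.72 ± 0.820 TPM in soma, and at 7 hpf 13 ± 1.65 TPM in PGCs and 19.5 ± 11.7 TPM in soma (SD over 2 libraries each). In TPM, PGCs and soma overlapped at either stage and the stages did not overlap. The 2 soma libraries of 7 hpf had 27.69 and 11.21 TPM. Features under 100 bases took 52.6% of all TPM in the first of them and 74.2% in the second, against 75.3% and 72.5% in PGCs at 7 hpf. In CPM, the PGC libraries of 7 hpf lay below the soma libraries of 7 hpf without overlap, while the cell types overlapped at 24 hpf.

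bmp4 encodes another ventral Bmp ligand of the gastrula. At 24 hpf it had 176 and 167 expected counts in PGCs (9.29 and 10.1 CPM), against 351 and 213 in soma (23.2 and 14.6 CPM). At 7 hpf it had 681 and 439 in PGCs (49.4 and 45.2 CPM), against 1086 and 595 in soma (81.3 and 55.4 CPM). The PGC libraries were lower than the soma libraries at both stages without overlap in CPM. bmp4 fell by 2.28 ± 0.35 on the log2 scale in PGCs (SE, edgeR, adjusted p = 0.00176), and in soma it fell by 1.85 ± 0.34 (adjusted p = 0.00324). This was the smallest of the 3 falls of the Bmp ligands and chrd in each cell type. At 24 hpf it averaged 1.38 ± 0.156 TPM in PGCs and 3.52 ± 1.86 TPM in soma, which did not overlap, and at 7 hpf 10.4 ± 0.170 TPM in PGCs and 14.2 ± 8.0 TPM in soma, which did (SD over 2 libraries each).

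chrd, which encodes Chordin, was the most abundant of the 5 genes at 7 hpf and had the largest change. At 24 hpf its expected counts were 96 and 72 in PGCs (5.07 and 4.36 CPM) and 44 and 77 in soma (2.91 and 5.28 CPM). At 7 hpf the counts were 5690 and 1753 in PGCs (413 and 181 CPM) and 7713 and 6634 in soma (577 and 618 CPM). The soma replicates of 7 hpf were close, while the first PGC library of 7 hpf held the larger value by far. chrd fell by 5.97 ± 0.49 on the log2 scale in PGCs, a 62.8-fold difference (SE, edgeR, adjusted p = 0.000155), and in soma it fell by 7.19 ± 0.52, a 146-fold difference (adjusted p = 8.5e-05). Without the first PGC library of 7 hpf the log2 fold change in PGCs was -5.24. At 7 hpf its TPM was above that of 93.4% to 96.7% of the genes tested in all 4 libraries, and at 24 hpf above that of 21.3% to 30.0%. At 24 hpf it averaged 0.550 ± 0.184 TPM in PGCs and 0.615 ± 0.134 TPM in soma, and at 7 hpf 55.5 ± 25 TPM in PGCs and 102 ± 29.4 TPM in soma (SD over 2 libraries each). The 2 cell types overlapped at 24 hpf, where CPM averaged higher in PGCs, and were apart at 7 hpf. With TPM taken only over features of at least 500 bases they overlapped at 7 hpf too, with 391 and 197 in PGCs and 390 and 435 in soma.

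fgf8a encodes an Fgf ligand of the gastrula margin and later of the midbrain-hindbrain boundary. At 24 hpf it had 150 and 54 expected counts in PGCs (7.92 and 3.27 CPM) and 180 and 76 in soma (11.9 and 5.22 CPM). At 7 hpf it had 539 and 268 in PGCs (39.1 and 27.6 CPM) and 304 and 324 in soma (22.7 and 30.2 CPM). The cell types overlapped at both stages. It fell by 2.57 ± 0.56 on the log2 scale in PGCs (SE, edgeR, adjusted p = 0.0088), and in soma it fell by 1.63 ± 0.55 (adjusted p = 0.0399). These calls and their size depended on single libraries. Without the second PGC library of 24 hpf, the one with 54 counts, it fell by 2.07 in PGCs with an adjusted p of 0.0677, and without the first the log2 fold change was -3.34. In soma the call was lost without the first library of 7 hpf (-1.81, adjusted p = 0.0558), without the second (-1.41, 0.119) and without the second library of 24 hpf (-1.15, 0.202), while without the first library of 24 hpf it held at -2.4.

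The effective length of fgf8a moved between libraries far more than that of the other genes. Effective length counts the positions from which a fragment of a transcript can start, as a mean over isoforms that weights each by its estimated abundance. For fgf8a at 24 hpf it was 698 and 2018 bases in PGCs and 889 and 548 bases in soma, and at 7 hpf 632 and 733 bases in PGCs and 1282 and 1097 bases in soma. With each library's common shift removed, the range over the 8 libraries was 1463 bases for fgf8a, 525 for chrd and 240 for bmp2b, and bmp4 (2753 bases) and shha (4313 bases) kept a single length. Since TPM divides the count by this length, the 2 units differ for fgf8a. At 7 hpf it had 35.6 and 24.4 TPM in PGCs against 11.9 and 11.7 TPM in soma, with no overlap, although the CPM ranges overlapped. On log2(TPM + 1) the difference was 1.25 with limma and did not pass (adjusted p = 0.32). At 24 hpf it had 5.03 and 0.56 TPM in PGCs against 7.70 and 3.96 TPM in soma. The PGC library at 0.56 TPM is the same that had the length of 2018 bases. That length was estimated from 54 counts, and the lengths in the other libraries of 24 hpf from 76 to 180. Which isoforms these lengths stood for was not analysed here.

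**Figure D2:**
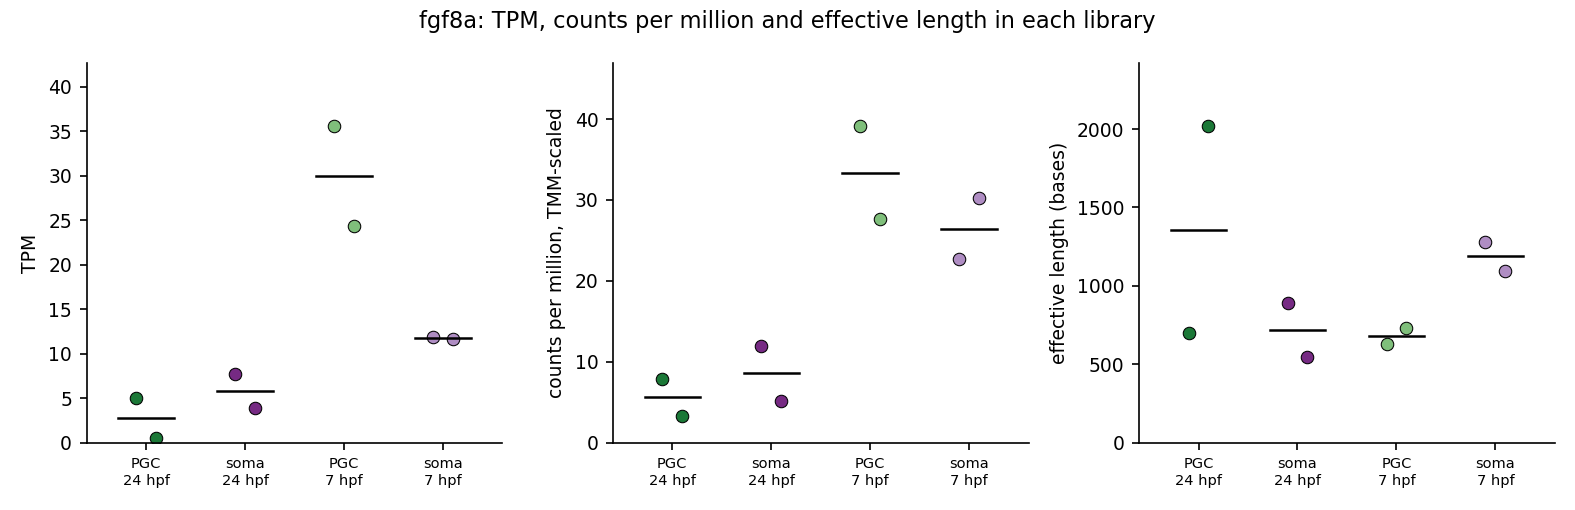
fgf8a in each of the 8 libraries as TPM, as TMM-scaled CPM and as effective length in bases, each on a linear axis from 0, with 1 point per library and a bar at the mean of 2. At 7 hpf the PGC points lie above the soma points in TPM, overlap them in CPM and lie below them in length.

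shha, a Hedgehog ligand, was the gene that rose. At 24 hpf its expected counts were 1348 and 922 in PGCs (71.2 and 55.9 CPM) and 993 and 1027 in soma (65.7 and 70.5 CPM). At 7 hpf they were 200 and 33 in PGCs (14.5 and 3.4 CPM) and 276 and 226 in soma (20.7 and 21.1 CPM). The soma replicates were close at both stages, and the PGC replicates of 7 hpf were not. Their counting intervals were 12.6 to 16.7 CPM and 2.34 to 4.77 CPM (95%, exact Poisson, for counting error only). shha rose by 2.81 ± 0.56 on the log2 scale in PGCs (SE, edgeR, adjusted p = 0.00578) and by 1.71 ± 0.54 in soma (adjusted p = 0.0316). In PGCs the log2 fold change was 4.24 without the first and 2.12 without the second PGC library of 7 hpf, and the call held. The soma call was near the threshold and was lost without any of the 4 soma libraries, with fold changes of 1.66 to 1.72 and adjusted p-values of 0.0729 to 0.0996, and without the first PGC library of 24 hpf (adjusted p = 0.0508). At 24 hpf shha averaged 5.88 ± 1.99 TPM in PGCs and 7.76 ± 1.38 TPM in soma, and at 7 hpf 1.22 ± 1.00 TPM in PGCs and 2.65 ± 0.806 TPM in soma (SD over 2 libraries each). PGCs and soma overlapped at 24 hpf and did not at 7 hpf. With TPM taken only over features of at least 500 bases they overlapped at 7 hpf too, with 10.3 and 2.66 in PGCs and 10.2 and 11.1 in soma.

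To ask whether PGCs and soma differed in these signals, the cell types were compared within each stage. At 7 hpf, 0 of the 5 genes passed the threshold of an adjusted p under 0.05 and a log2 fold change of at least 1.5, where 5.44% of the 19885 genes tested did. The fitted log2 fold changes were -0.74 ± 0.36 for bmp2b, -0.53 ± 0.33 for bmp4, -1.01 ± 0.40 for chrd, 0.33 ± 0.53 for fgf8a and -1.21 ± 0.54 for shha (SE, edgeR, adjusted p from 0.145 to 0.762). The adjusted p was 0.145 for chrd and 0.192 for shha, the lowest of the 5, and chrd was the 1 gene of the 5 to pass 0.05 without adjustment. DESeq2 and limma on TPM also called 0 of the 5. With no count filter the adjusted p was 0.0182 for chrd (-1.04) and 0.0353 for shha (-1.23), both short of the minimum fold change. The 95% intervals of the log2 fold change ran from -1.91 to -0.11 for chrd, from -2.42 to 0.01 for shha and from -1.55 to 0.07 for bmp2b, so PGC levels well below those of soma remained within them. Without the first PGC library of 7 hpf, chrd (-1.78, adjusted p = 0.0494) and shha (-2.67, adjusted p = 0.0332) passed the threshold. That library held 413 CPM of chrd and 14.5 CPM of shha, against 181 and 3.4 CPM in its replicate. The CPM ranges of PGCs and soma did not overlap for bmp2b, bmp4, chrd and shha, 4 of 5 genes and all lower in PGCs. Of the genes tested 48.7% did not overlap, with 24.9% lower in PGCs and 23.8% higher.

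At 24 hpf, 0 of the 5 genes passed, where 0.0302% of the genes tested did, a total of 6 genes. Without adjustment 601 of the 19885 genes passed at 0.05 in the edgeR fit, and bmp4 was the 1 of the 5 genes among them. That share is below the 0.05 that would pass if no gene differed. The comparison was thus cautious, and 0 of 5 is weak evidence that the cell types were alike. DESeq2 and limma on TPM also called 0 of the 5. The log2 fold change of bmp4 was -0.96 ± 0.34 (SE, edgeR, adjusted p = 1), with a 95% interval from -1.73 to -0.20. The other 4 were at -0.25 ± 0.37 (bmp2b), 0.20 ± 0.43 (chrd), -0.61 ± 0.54 (fgf8a) and -0.10 ± 0.52 (shha), each with an adjusted p of 1. Only bmp4 had CPM ranges that did not overlap, where 37.1% of the genes tested had such ranges. For shha, the interval from -1.27 to 1.07 left room for more than a doubling in either direction.

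**Figure D3:**
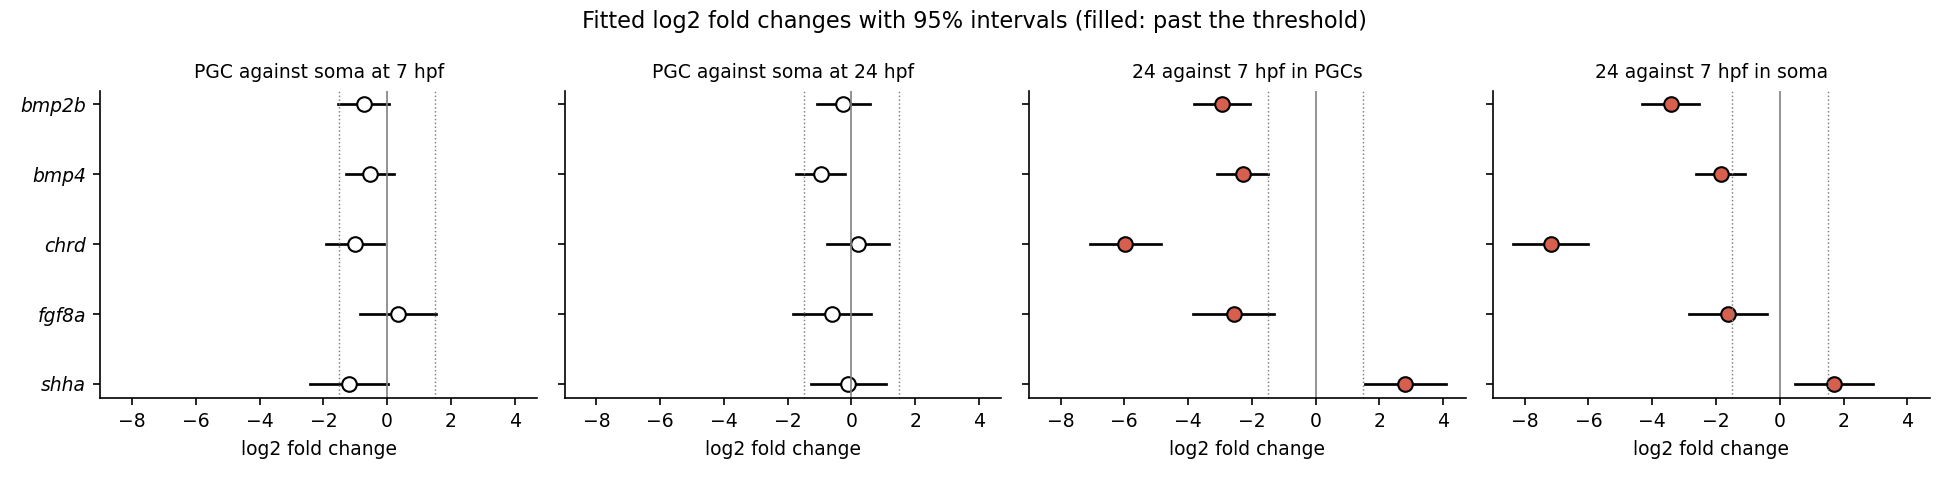
Points are fitted log2 fold changes and lines their 95% intervals for the 5 genes in each of 4 comparisons, with dotted lines at the threshold of 1.5 in either direction and filled points for genes past the threshold. No point is filled for PGCs against soma, and all 5 are filled for 24 against 7 hpf in PGCs and in soma.

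The stages were compared within each cell type. In PGCs, 5 of 5 genes passed the threshold, where 26.5% of all genes tested did. Among all genes tested, 6.94% were lower at 24 hpf and 19.5% higher. In soma, 5 of 5 passed where 33.1% of all genes tested did, with 9.89% lower and 23.2% higher. CPM ranges did not overlap between stages for any of the 5 genes in either cell type, where 73.8% of the genes tested in PGCs and 73.6% in soma had such ranges. The median log2 fold change of all genes tested was 0.36 in PGCs and 0.46 in soma, so relative to the middle of all genes the falls are larger, and the rises of shha smaller, by these amounts. The variance of log2 CPM, with a small constant added to CPM, was split over the 8 libraries. Stage held 94.9% for bmp2b, 85.6% for bmp4, 97.1% for chrd, 83.9% for fgf8a and 76.3% for shha. Cell type held between 0.161% for fgf8a and 9.82% for bmp4. Differences between replicates held 12.4% for fgf8a and 10.7% for shha, more than cell type did for these genes, and 1.18% to 3.94% for the others.

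Whether the stage difference itself differed between PGCs and soma was tested with the interaction term. It passed for 0 of the 5 genes, where 0.00503% of the genes tested passed (1 gene, with 2994 past 0.05 without adjustment, none of the 5 among them). DESeq2 and limma on TPM also called 0 of the 5. The interaction, PGC less soma on the log2 scale, was 0.49 ± 0.51 for bmp2b, -0.43 ± 0.47 for bmp4, 1.21 ± 0.58 for chrd, -0.95 ± 0.76 for fgf8a and 1.10 ± 0.75 for shha (SE, edgeR, adjusted p from 0.368 to 0.722). The chrd interval ran from -0.10 to 2.53. Leaving out single libraries gave 0.45 to 2.57 for shha, the highest without the first PGC library of 7 hpf, with no call.

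Ratios of genes within a library do not depend on how the libraries were scaled. Chordin mRNA per Bmp ligand mRNA, taken as the TPM of chrd over the summed TPM of bmp2b and bmp4, was 0.241 and 0.195 in PGCs and 0.0729 and 0.213 in soma at 24 hpf, and 2.99 and 1.69 in PGCs and 2.59 and 4.12 in soma at 7 hpf. chrd mRNA thus outnumbered the summed mRNA of bmp2b and bmp4 in all libraries of 7 hpf and in none of 24 hpf, and PGCs and soma overlapped at both stages. Other Bmp ligands and antagonists were not part of this ratio. The ratio of bmp4 to bmp2b in TPM was 1.12 and 1.44 in PGCs and 2.10 and 1.93 in soma at 24 hpf, and 0.730 and 0.894 in PGCs and 0.719 and 0.765 in soma at 7 hpf. bmp2b was the more abundant ligand in the 4 libraries of 7 hpf and bmp4 in the 4 of 24 hpf, where the PGC ratios lay below the soma ratios. The ratio of shha to fgf8a in TPM was 1.45 and 8.0 in PGCs and 1.13 and 1.71 in soma at 24 hpf, and 0.0543 and 0.0209 in PGCs and 0.271 and 0.178 in soma at 7 hpf. The 8.0 is from the library with the fgf8a length of 2018 bases, estimated from 54 counts. In expected counts, which take no account of length, the ratio was 5.52 to 17.1 over the libraries of 24 hpf and 0.123 to 0.908 over those of 7 hpf. Of the summed TPM of the 5 genes, chrd held 44.4% to 70.9% at 7 hpf and 2.16% to 5.52% at 24 hpf, and shha held 36.3% to 58.9% at 24 hpf and 0.600% to 1.81% at 7 hpf.

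**Figure D4:**
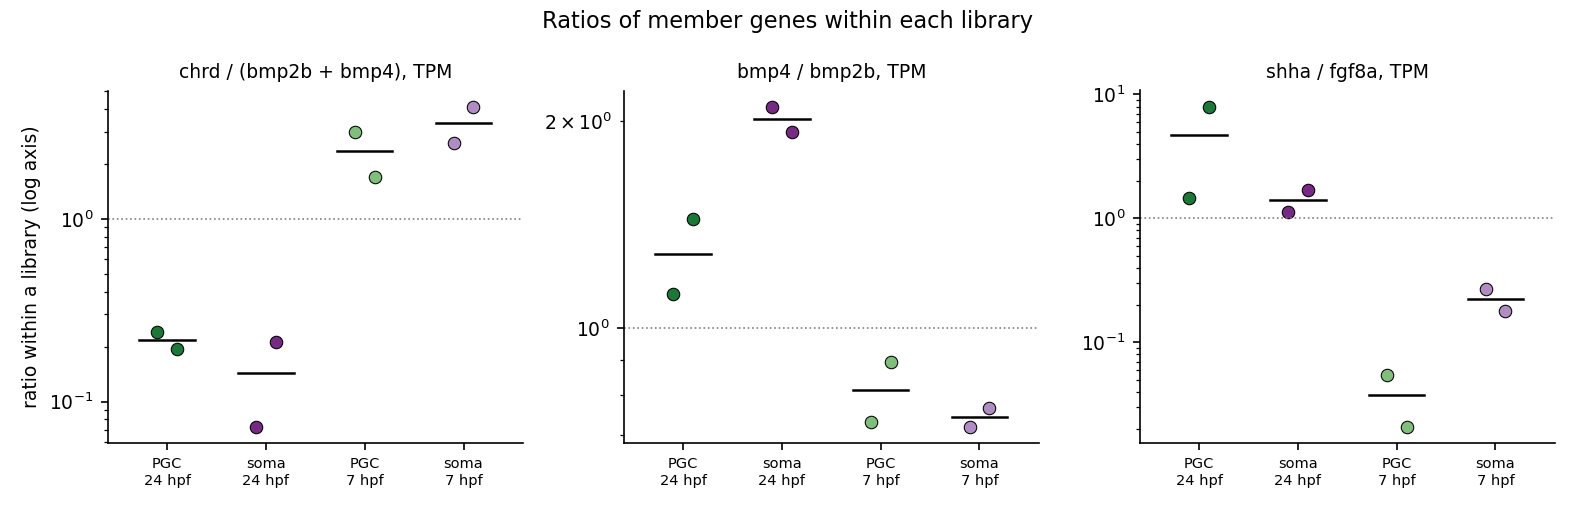
Ratios within each of the 8 libraries on log axes, with 1 point per library, a bar at the mean of 2 and a dotted line at a ratio of 1. chrd over bmp2b plus bmp4 (TPM) lies between 0.0729 and 0.241 at 24 hpf and between 1.69 and 4.12 at 7 hpf, bmp4 over bmp2b (TPM) is above 1 only at 24 hpf, and shha over fgf8a (TPM) is above 1 in the 4 libraries of 24 hpf and below 1 in the 4 of 7 hpf.

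The other genes of the 3 pathways were taken from lists of 69 gene IDs, 68 of which could be tested. The reference table names many zebrafish genes by the symbol of their human counterpart, and 2 zebrafish copies can share a symbol. Between PGCs and soma, 2 of 68 were higher and 5 lower in PGCs at 7 hpf, where 3.61% of all genes tested were higher and 1.83% lower, with a median log2 fold change of -0.57 (0 over all genes tested). With genes that lacked counts in a group set by the fold of the other group's mean over a floor of 3 counts, that median was -0.52. At 24 hpf 0 passed (median -0.20, against 0.02 over all genes). The 2 of 68 that were higher at 7 hpf lie near the 3.61% of all genes tested. Both lacked any count in soma at 7 hpf. gdf6a, a Bmp ligand of the dorsal eye and ectoderm, had 14 and 18 counts in PGCs at 7 hpf (1.02 and 1.85 CPM) against 0 in soma. Its mean in PGCs was 5.69-fold a soma floor of 3 counts per library. nog2, which encodes a Noggin antagonist of Bmp, had 21 and 56 counts in PGCs (1.52 and 5.77 CPM) against 0 in soma. Its mean in PGCs was 14.5-fold that floor, with the first library well below this mean. The 5 that were lower in PGCs were msx1b (-1.85 ± 0.43), a homeobox target of Bmp, the Fgf receptors fgfr4 (-1.70 ± 0.28) and FGFR1 (ENSDARG00000011027, -1.69 ± 0.25), and both GLI2 genes (-1.83 ± 0.36 and -1.59 ± 0.27), transcription factors of the Hedgehog pathway (log2, SE, edgeR, adjusted p from 0.0148 to 0.0353).

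The counts of called genes between stages in each list below stand against 19.5% of all genes tested higher and 6.94% lower in PGCs, and 23.2% higher and 9.89% lower in soma. Other Bmp ligands did not all follow bmp2b and bmp4 from 7 to 24 hpf. Of 5 listed ligands 3 were higher and 2 lower at 24 hpf, in PGCs and in soma. bmp7a, which pairs with Bmp2b in the gastrula, had 1.00 and 2.85 CPM in PGCs at 24 hpf and 37.0 and 35.7 CPM in PGCs at 7 hpf (-4.24 ± 0.55, adjusted p = 0.000804), and fell in soma too (-5.99 ± 0.59, edgeR, adjusted p = 0.000251). admp, a Bmp-like signal of the dorsal side, fell by 6.71 ± 1.22 in PGCs (adjusted p = 0.00389). The second BMP2 gene, the second BMP7 gene and gdf6a were higher at 24 hpf. The first of these had 3.22 and 2.36 CPM in PGCs at 24 hpf and 0 in both PGC libraries of 7 hpf. Its mean at 24 hpf was 10.6-fold a floor of 3 counts per library. Antagonists and proteases split as well, with 5 of 12 higher and 2 lower in PGCs and 4 higher and 2 lower in soma. szl (Sizzled), which protects Chordin from cleavage, was 0 and 1.15 CPM in PGCs at 24 hpf against 27.6 and 17.8 CPM at 7 hpf (-5.32 ± 1.10, adjusted p = 0.00845), and fell together with chrd in both cell types. TLL1, a protease of the tolloid family that cleaves Chordin, fell by 1.60 ± 0.43 in PGCs and fell by 2.01 ± 0.43 in soma (log2, SE, edgeR, adjusted p = 0.0196 and 0.00624). The follistatin gene FST (ENSDARG00000057992) was at 0 in all libraries of 7 hpf and had 12.3 and 29.0 CPM in PGCs and 4.50 and 24.3 CPM in soma at 24 hpf.

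Of the listed Bmp targets, the ventral genes ved, vox and vent, homeobox repressors of dorsal genes, all fell. In PGCs, ved had 8.50 and 10.3 CPM at 24 hpf, against 285 and 279 CPM at 7 hpf, vox 3.96 and 4.54 against 118 and 60.3 CPM, and vent 0.898 and 0 against 15.4 and 7.11 CPM. Among 16 Bmp receptors, Smads and targets, 4 were higher and 3 lower in PGCs (median 0.22, all genes tested 0.36) and 3 higher and 5 lower in soma (median -0.94, all genes 0.46). The 4 of 16 higher in PGCs lie near the 19.5% of all genes. Those higher in PGCs were bmpr1ba, both BMPR2 genes and SMAD1, which receive the signal or carry it to the nucleus. ID1, a general Bmp target, was at 166 and 159 CPM in PGCs at 24 hpf and 148 and 146 CPM in PGCs at 7 hpf, without a call. Stage differences of the other listed Bmp targets are not given here, so the falls of ved, vox and vent do not stand for all targets.

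Several genes that Fgf signalling switches on fell, as fgf8a did. Among 13 Fgf receptors and targets, 6 were lower and 2 higher in PGCs (median -1.27), where 6.94% of all genes tested were lower and 19.5% higher, and 6 lower and 2 higher in soma (median -1.47), where 9.89% of all genes were lower and 23.2% higher. The 6 in PGCs were SPRY1, DUSP6, ETV4, etv5a, etv5b and IL17RD, inhibitors and transcription factors of the pathway, with log2 fold changes from -2.0 to -3.12, while SPRY2 and SPRY4 did not pass. DUSP6, for example, had 77.5 and 56.7 CPM in PGCs at 24 hpf and 312 and 409 CPM in PGCs at 7 hpf (-2.42 ± 0.27, SE, edgeR, adjusted p = 0.000408). The receptors FGFR2 and FGFR3 rose in PGCs (3.26 ± 0.44 and 5.82 ± 0.69) and in soma (2.35 ± 0.42 and 5.83 ± 0.70). Of the 5 other Fgf ligands tested, fgf24 fell (-4.62 ± 0.75 in PGCs, -3.43 ± 0.70 in soma), and FGF10 (ENSDARG00000030932), at 0 in every library of 7 hpf, rose in both.

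Hedgehog receptors and targets rose where they passed, and all genes tested also rose more often than they fell. Of 14 genes 8 were higher and 0 lower in PGCs (median 2.08), where 19.5% of all genes were higher and 6.94% lower. In soma 6 were higher and 0 lower (median 1.00, or 0.99 with NKX2-2 at its fold over the floor), where 23.2% of all genes were higher and 9.89% lower. PTCH1, the Hedgehog receptor that is also a target, had 144 and 138 CPM in PGCs at 24 hpf and 14.1 and 14.8 CPM in PGCs at 7 hpf (3.28 ± 0.25, SE, edgeR, adjusted p = 0.000116). In soma it had 142 and 143 CPM at 24 hpf and 24.8 and 24.2 CPM at 7 hpf (2.54 ± 0.24, adjusted p = 0.000203). The transcription factor GLI3, the ligand-binding inhibitor HHIP, the co-receptor CDON and the neural tube target NKX2-2 also passed in both cell types, and both GLI2 genes in PGCs. The second SHH gene was at 2.64 and 4.85 CPM in PGCs at 24 hpf and at 0 in both PGC libraries of 7 hpf. Its mean at 24 hpf was 14.2-fold a floor of 3 counts per library. Another Hedgehog ligand, ihhb, rose in soma. Over the 7 lists together, 24 of 68 genes were higher and 14 lower in PGCs at 24 hpf, and 20 higher and 16 lower in soma, where 26.5% of all genes tested passed in PGCs and 33.1% in soma. The interaction passed for 0 of the 68.

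**Figure D5:**
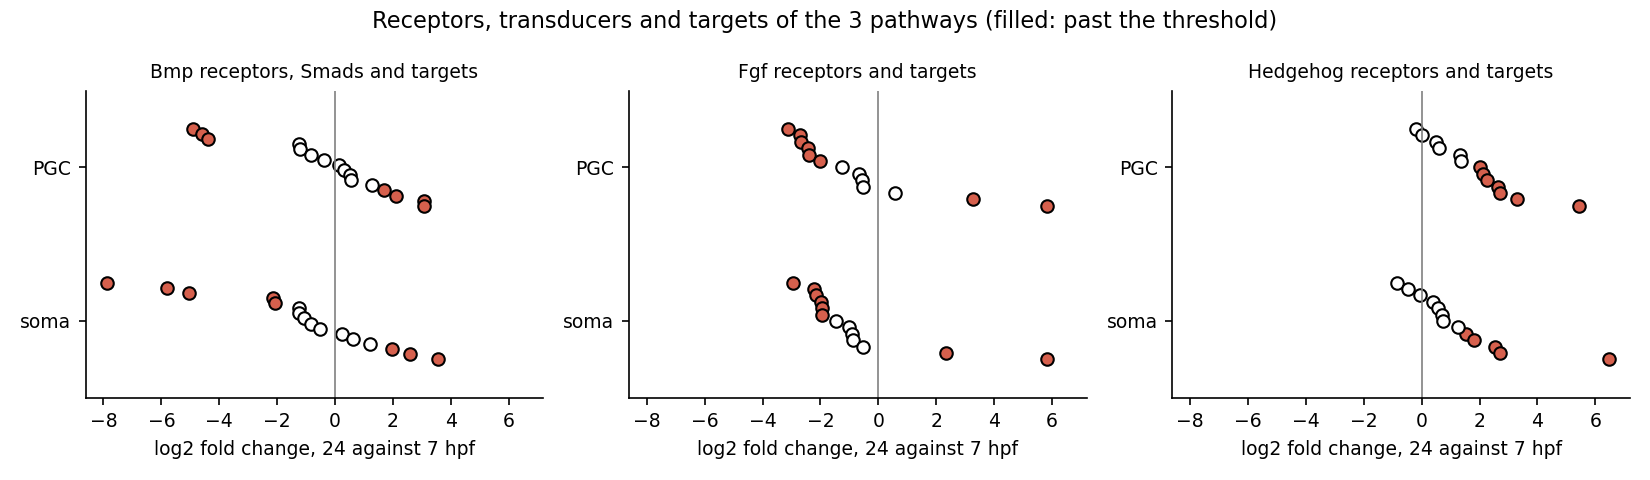
Each point is 1 gene of a list, drawn at its fitted log2 fold change for 24 against 7 hpf in PGCs (upper band) or soma (lower band), where both stages held more than 3 counts over their 2 libraries, with filled points past the threshold. Of the Hedgehog genes 7 of 13 drawn are filled in PGCs and 5 of 13 in soma, all to the right of 0, and the Fgf genes are filled mostly to the left, 8 of 13 in each cell type.

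The levels of the genes followed each other across libraries. Pearson's r of log2(TPM + 1) over the 8 libraries was 0.97 for bmp2b with bmp4, 0.97 for bmp2b with chrd, 0.91 for bmp4 with chrd and 0.77 to 0.81 for fgf8a with these 3. For shha it was -0.64 to -0.78 with the other 4. These are descriptions over libraries that fall into 2 stages and in which both genes share depth and scaling. The gene most like bmp2b in this measure was sdcbp2 (r = 0.998), the gene most like bmp4 was SLTM (0.996), most like chrd was VRTN (0.996), most like fgf8a was CEP55 (0.980) and most like shha was AAAS (0.983), each over 8 libraries. In rank among the genes tested in a library, bmp2b was above 35.4% to 87.8% of them by TPM, bmp4 above 42.9% to 84.5%, fgf8a above 26.2% to 93.1% and shha above 31.5% to 79.2%.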

How the data were processed

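RNA of sorted cells (1 to 3 ng per library in the study's methods) was made into stranded total RNA libraries with a low-input kit and sequenced in paired reads. Per the labels and the study's methods, the authors trimmed reads with Trim Galore, aligned them with STAR to the danRer10 build and ran RSEM for the quantification. The deposited expected counts are RSEM's estimates per gene. The deposited TPM values divide counts by length and by the library's sum, and the authors' effective lengths are in bases. In these TPM values, features under 100 bases took 52.6% to 75.3% of each library's sum. Whether strand was used in counting and whether earlier lanes were merged are not given in the sources used here, so overlapping and antisense genes, and gene copies that share reads, are uncertain. The 92 spike-in rows, all at 0 counts, were left out, which took no share of the counts, and 0 columns were unmatched.

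Expected counts were rounded (those of the 5 genes were whole in all libraries) and tested in R 4.3.3 with edgeR 4.0.16. The steps were filterByExpr, TMM and the quasi-likelihood test with 4 group means on all 8 libraries. Each SE of a fold change was worked back from the log2 fold change and the F statistic of that test. The 95% intervals of fold changes were built from these SEs with the t distribution. The threshold was that of the study, a log2 fold change of 1.5 or more in either direction with p under 0.05 after Benjamini-Hochberg adjustment. Alternatives used limma 3.58.1 on log2(TPM + 1) and log2(TPM + 0.1), DESeq2 1.42.0, RLE scaling, no count filter, a test against the minimum fold change, 4 libraries at a time, a replicate block and leaving out each library. TPM over features of at least 500 bases was added after seeing the data. The test was checked on simulated data for PGCs against soma at 7 hpf, where 85% of 200 genes changed by a log2 fold of 3 among 19885 were called. Of the calls 4.49% were unchanged genes. The simulation gave all genes the same dispersion between replicates. Its changes were larger than the fitted differences of the 5 genes between PGCs and soma, so it does not show how often such differences would be called. Groups and replicate numbers came from titles. With 2 libraries per group, counts of replicates differed by far more than sampling noise (chi-square per degree of freedom 43.0 to 116), and each was kept as a replicate. Intervals from counts cover counting error only.

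All 5 genes were named whatever their values, with the single most similar gene for each, and pathway and marker genes came from lists of symbols. Members and lists were chosen with earlier results of these data known. Symbols came from a reference table that named 26790 of the 34289 IDs. Of 83 listed symbols 1 had no ID, and 86 IDs were used. The values of 1 listed gene are not reported here, although the counts include it. The table gives the 5 genes without their zebrafish suffixes in part, so the names bmp2b, bmp4, fgf8a and shha are those of the rule that chose them.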

Additional observations from a re-analysis of the deposited data

How the results depend on the processing

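Each group held 2 libraries, so a fit without a library assumes that its lone partner varies like the other groups. The 5 genes called between stages in soma became 2 when tested against the minimum fold change (bmp2b and chrd). The calls became 3 (bmp2b, bmp4 and chrd) with limma on log2(TPM + 1) and on log2(TPM + 0.1). They were the same 3 with limma on TPM over features of at least 500 bases. In PGCs the 5 calls became 4 against the minimum fold change, without fgf8a (edgeR, adjusted p = 0.0742). They also became 4 with limma on TPM over features of at least 500 bases, without shha (1.71, adjusted p = 0.0547). Leaving out each library gave 3 to 5 genes in soma, 4 to 5 in PGCs, 0 to 2 for PGCs against soma at 7 hpf, and 0 in every such fit at 24 hpf and for the interaction. The TPM alternatives moved the median stage difference of all genes (log2) by -0.49 in PGCs and -0.34 in soma with log2(TPM + 1), by -0.57 and -0.18 with log2(TPM + 0.1), and by -0.88 and -0.47 over features of at least 500 bases. The order of the 4 groups was kept for 3 of the 5 genes by TPM over features of at least 500 bases, where it changed for bmp4 and chrd, and for 4 of 5 by CPM, where it changed for chrd. Over all genes tested, calls in PGCs against soma numbered 1081 at 7 hpf (8 to 2264 over the alternatives) and 6 at 24 hpf (0 to 103), those between stages 5266 in PGCs (2686 to 7200) and 6588 in soma (3380 to 8263), and those of the interaction 1 (1 to 986).

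No direction of a called difference was reversed. Among uncalled values, bmp4 in PGCs against soma at 7 hpf was 0.04 over features of at least 500 bases, with -0.78 to -0.23 in the fits without a library. At 24 hpf chrd was -0.06 with log2(TPM + 1), -0.15 with log2(TPM + 0.1) and -0.14 to 0.69 without a library, fgf8a -1.39 to 0.13 and shha -0.29 to 0.07. The bmp2b interaction was -0.10 with log2(TPM + 0.1), -0.08 over features of at least 500 bases and 0.14 to 0.78 without a library. Of 420 values for single genes, 389 kept their direction and side of the threshold, 21 lost their call, 2 gained it and 8 changed sign. The cause of these changes was not tested.

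The labels do not say that same-numbered libraries share embryos or a sort. The correlation of their replicate differences over 19885 genes was 0.103 at 7 hpf and 0.262 at 24 hpf between PGCs and soma, 0.045 between stages in PGCs and -0.006 in soma, and the numbers were not taken as pairs. The fit with a replicate block called 0, 0, 5, 5 and 0 of the 5 genes in PGCs against soma at 7 and 24 hpf, in the stages of PGCs and soma and in the interaction, and 864, 0, 4212, 5295 and 1 of all genes. It changed no call of the 5 genes.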
